A study of Mus musculus with 9 samples.

Results

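ATAC-seq peaks were examined at 39 mouse genes of homologous recombination, the Fanconi anaemia pathway and the DNA damage checkpoints. A peak was assigned to a gene where its summit lay inside the gene's GRCm38 span or within 10 kb of either end, and peaks within 1 kb of an end, called gene-end peaks here, were kept apart from the others. Overlapping peaks of the 9 lists (1 bp or more in common) were joined, which gave 76253 regions. Of these, 133 belonged to the 39 genes, 46 at gene ends and 87 elsewhere, the latter split into 51 inside a gene and 36 in a flank. Most of these genes were open at their ends in WT and in the β-catenin, Hoxa9 and Prmt1 mutants alike: 32 of 39 had a gene-end peak in lists of equal length from all 8 replicated libraries. None of the 54 regions tested passed the limma test of rank in these 3 mutants. None of the 90 regions in any shortened list met the stricter call rule of gain or loss. The differences nearest to a call were at single regions of Slx4, Rad51b, Rad52 and Fancc. That of Slx4, with no peak in WT, was outside the main limma test.

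The libraries came from LSK cells, the bone marrow fraction that lacks lineage markers, carries Sca-1 and Kit, and holds haematopoietic stem and progenitor cells. There were 2 libraries each of WT cells and of the mutants called Bcat_KO (β-catenin), HOXA9_KO and PRMT1_KO, and 1 library of the combined β-catenin and Hoxa9 mutant, called dKO. The sample titles say KO while the genotype tags say knockdown, and the titles are followed here. The series text speaks of Prmt1KO mice that had received a primary transplant; whether the WT, β-catenin and Hoxa9 cells were also transplanted, and which alleles, strains and ages were used, is not given in the sources used here. Prmt1 is a protein arginine methyltransferase, β-catenin carries the canonical Wnt signal to its target genes, and Hoxa9 is a homeobox factor of blood progenitors. Separate mice are not named for the libraries of a group, so the spread behind each p-value is that between these libraries and may be technical.

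The deposited lists held 35581 and 28325 peaks in WT, 39881 to 45460 in the 6 Bcat_KO, HOXA9_KO and PRMT1_KO libraries, and 10639 in the dKO. Lists were therefore compared after keeping the 28325 strongest peaks of each by −log10 p, called the shortened lists, and by rank within a list, where 1 is the strongest. The median number of reads at the summits of the member gene-end peaks was 32.0 to 53.0 in the 8 libraries and 12 in the dKO. Of 11 stem and progenitor marker genes, 6 to 10 had a gene-end peak in each of the 8 libraries and 2 in the dKO. The counts were 2 to 3 of 5 for erythroid, 0 to 2 of 5 for myeloid, 1 of 4 for B-cell, 0 to 1 of 4 for T-cell, 0 of 2 for NK, 2 to 3 of 3 for megakaryocyte and 2 to 3 of 4 for stromal and endothelial markers. Peaks in the male-specific part of chromosome Y numbered 12 to 16 in each of the 6 Bcat_KO, HOXA9_KO and PRMT1_KO libraries, 6 in the dKO and 0 in both WT libraries, so that sex and genotype cannot be told apart in any difference shared by the mutants. The dKO list follows another naming of its sequencing run, and run and genotype cannot be told apart there.

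Homologous recombination repairs a broken chromosome from its sister copy: the MRN complex and nucleases resect the broken end, and BRCA1, PALB2 and BRCA2 then act at the resected end to start strand exchange. The Fanconi core complex marks FANCD2 and FANCI at DNA crosslinks, while the kinases ATM and ATR, through CHEK2 and CHEK1, hold the cell cycle. Inherited loss of Fanconi genes causes bone marrow failure, which makes the pathway a familiar one in blood stem cells.

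Promoter sequences from RefSeq (GRCm38.p6) matched 30 of the 39 genes, with 33 entries, since Rad51b, Rad51c and Rad54l each had 2; those of Rad51b and Rad54l overlap. No entry was matched for Exo1, Fancd2, Nbn, Rad50, Rad51d, Rad9a, Rbbp8, Wrn and Xrcc2. The 250 bases before each start site were searched on both strands for short motifs of factors known to drive cell-cycle and housekeeping promoters. An E2F motif, taken as TTTCCCGC, TTTCGCGC, TTTGCCGC or TTTGGCGC, was in 6 of the 33 member entries (18.2%) and in 1.86% of 32851 mouse promoters. It was in 3.99% of the 9294 open protein-coding promoters, those with a peak summit within 1 kb of the start site in all 8 shortened lists. E2F factors drive genes of S phase. The 6 genes were Bard1, Brca2, Chek2, Fancg, Mdc1 and Topbp1, and their promoters are printed because they are the members that carry the motif. Xrcc3, with 6 CCAAT boxes, the motif bound by NF-Y, and Fancf, with 3, follow as strong ends with several boxes; Brip1, not printed, also has 3. Each sequence reads 5′ to 3′ toward the start site and lies within an open region described further on; capitals mark E2F motifs, CCAAT boxes on either strand (CCAAT or ATTGG) and the cell-cycle homology motif TTTGAA. The intervals are, in the same order, chr1:71102973-71103222 on the minus strand, chr5:150522371-150522620 on the plus strand, chr5:110839733-110839982 on the plus strand, chr4:43010302-43010551 on the minus strand, chr17:35841248-35841497 on the plus strand, chr9:103305077-103305326 on the plus strand, chr12:111813880-111814129 on the minus strand and chr7:51862268-51862517 on the minus strand.
Bard1: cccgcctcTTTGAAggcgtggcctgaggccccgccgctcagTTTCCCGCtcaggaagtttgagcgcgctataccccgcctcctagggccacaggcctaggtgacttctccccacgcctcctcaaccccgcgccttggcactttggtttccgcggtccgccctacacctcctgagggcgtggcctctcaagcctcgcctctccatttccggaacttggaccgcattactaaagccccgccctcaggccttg
Brca2: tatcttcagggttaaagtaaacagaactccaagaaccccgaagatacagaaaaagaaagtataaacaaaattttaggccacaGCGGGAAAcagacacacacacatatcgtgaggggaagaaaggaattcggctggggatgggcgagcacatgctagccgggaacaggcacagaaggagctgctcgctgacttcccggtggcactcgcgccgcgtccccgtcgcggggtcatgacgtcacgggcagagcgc
Chek2: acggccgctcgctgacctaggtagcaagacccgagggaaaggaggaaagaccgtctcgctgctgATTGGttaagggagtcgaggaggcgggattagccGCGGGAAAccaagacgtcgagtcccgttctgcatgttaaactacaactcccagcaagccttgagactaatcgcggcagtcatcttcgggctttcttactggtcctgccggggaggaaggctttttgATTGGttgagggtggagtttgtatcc
Fancg: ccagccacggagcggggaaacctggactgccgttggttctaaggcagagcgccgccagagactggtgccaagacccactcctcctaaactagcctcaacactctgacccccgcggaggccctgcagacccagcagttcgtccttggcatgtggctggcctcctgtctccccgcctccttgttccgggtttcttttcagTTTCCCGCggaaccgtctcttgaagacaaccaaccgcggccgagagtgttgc
Mdc1: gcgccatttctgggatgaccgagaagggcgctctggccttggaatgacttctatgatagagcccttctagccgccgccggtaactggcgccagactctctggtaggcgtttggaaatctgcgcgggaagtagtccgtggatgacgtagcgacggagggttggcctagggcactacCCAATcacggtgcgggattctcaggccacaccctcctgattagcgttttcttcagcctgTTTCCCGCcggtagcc
Topbp1: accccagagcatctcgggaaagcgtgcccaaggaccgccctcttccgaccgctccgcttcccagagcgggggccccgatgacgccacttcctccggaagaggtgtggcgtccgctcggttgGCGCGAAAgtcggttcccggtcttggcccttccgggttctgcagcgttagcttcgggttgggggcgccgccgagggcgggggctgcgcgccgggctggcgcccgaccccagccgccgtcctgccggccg
Xrcc3: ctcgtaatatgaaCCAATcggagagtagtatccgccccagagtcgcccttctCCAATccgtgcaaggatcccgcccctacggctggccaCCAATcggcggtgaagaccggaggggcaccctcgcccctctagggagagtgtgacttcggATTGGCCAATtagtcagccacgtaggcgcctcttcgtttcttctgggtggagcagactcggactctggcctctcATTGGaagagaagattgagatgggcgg
Fancf: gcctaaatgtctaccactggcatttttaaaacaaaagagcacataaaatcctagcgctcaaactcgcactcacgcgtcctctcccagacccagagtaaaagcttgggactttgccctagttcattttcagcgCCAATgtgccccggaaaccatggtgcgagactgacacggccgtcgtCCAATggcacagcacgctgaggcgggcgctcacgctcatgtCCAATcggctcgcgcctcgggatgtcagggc

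The E2F motif ended 9 bases before the start site in Mdc1 and 45 in Fancg, and 122, 145, 161 and 202 bases before it in Topbp1, Chek2, Brca2 and Bard1. None of these matches overlapped another motif searched, while in Xrcc3 a reversed and a forward CCAAT box abutted. CCAAT boxes were in 57.6% of the member entries, against 33.8% of all promoters and 38.0% of the open protein-coding ones. The SP1 motif GGGCGGG was in 45.5%, against 23.4% and 47.7%, and the ETS motif CCGGAAG in 15.2%, against 6.91% and 16.2%. TTTGAA was in 3.03% of the member entries, that of Bard1, against 16.0% of all promoters and 9.29% of the open ones. The 250 bases of the members held no match to the NRF1 motif, the TCF/LEF motif CTTTGAT or the HOXA9-PBX motif TGATTTAT, which were in 0.782%, 3.21% and 0.837% of all promoters. The member entries were 58.4% G and C in the median, against 52.4% for all promoters and 61.6% for the open protein-coding ones. Among 41 entries of 49 further genes of the same pathways, such as Rpa1 and Clspn, 0 held the E2F motif and 53.7% a CCAAT box. These shares describe letters and do not show that a factor bound.

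**Figure D1:**
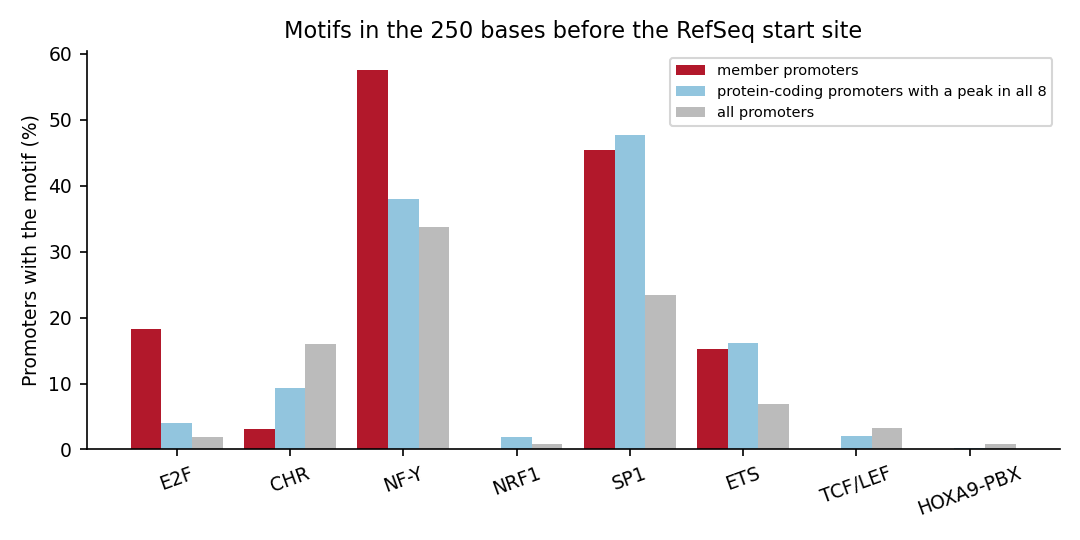
Share of promoters (%) whose 250 bases before the start site hold each motif, for 33 member entries, 9294 protein-coding promoters with a peak in all 8 shortened lists and 32851 promoters in all. The E2F bar of the members stands at 18.2% beside 3.99% and 1.86%, and the CCAAT (NF-Y) bar at 57.6% beside 38.0% and 33.8%.

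Gene ends of the 39 genes were open more often than those of protein-coding genes at large. A gene-end peak stood in the shortened lists of all 8 libraries for 32 members (82.1%) and for 42.3% of 21887 protein-coding genes, and in at least 1 of the 8 for 37 members (94.9%) and 57.9% of the genes. Among the 49 further genes of the same pathways, 46 had a gene-end peak in all 8, so this was not particular to the members. By library, 36 and 37 members had such a peak in WT, 35 and 36 in HOXA9_KO, 35 and 36 in Bcat_KO, and 36 and 35 in PRMT1_KO, so the groups overlapped. All protein-coding genes had one in 48.7 to 51.6% of cases in the same libraries. For the 32 members the mean rank of the strongest gene-end region had a median of 4046, against 5956 for the 9262 protein-coding genes with a peak in all 8, and the members' median was the lower in each group, at 4028 against 5434 in WT, 3992 against 6060 in Bcat_KO, 4087 against 5823 in HOXA9_KO and 3437 against 6037 in PRMT1_KO. These are descriptions over genes, which are not replicates.

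Member regions at gene ends were found in more lists, and were wider as merged, than those elsewhere. Of the 46 at ends, 35 were in all 8 shortened lists and 2 in only 1 of the 9 deposited lists, with a median width of 903 bp. Of the 87 elsewhere, 19 were in all 8 and 34 in only 1 list, with a median width of 377 bp. A width spans all merged peaks of a region and can grow with the number of lists. Widths were not compared at equal numbers of lists. Among the end regions present in all 8 whose gene had a RefSeq start site, 27 of 29 lay at the 5′ end, and 22 of those 27 had the summit within 250 bp of the start site, with a median distance of 90 bp. Neighbouring genes shared many of them: 17 of the 35 end regions also lay at an end of another protein-coding gene, and all 13 flank regions present in all 8 lay at an end or start of another gene. In all, 54 of the 90 member regions found in any shortened list were in all 8 (60.0%), against 34.0% of 46847 regions.

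**Figure D2:**
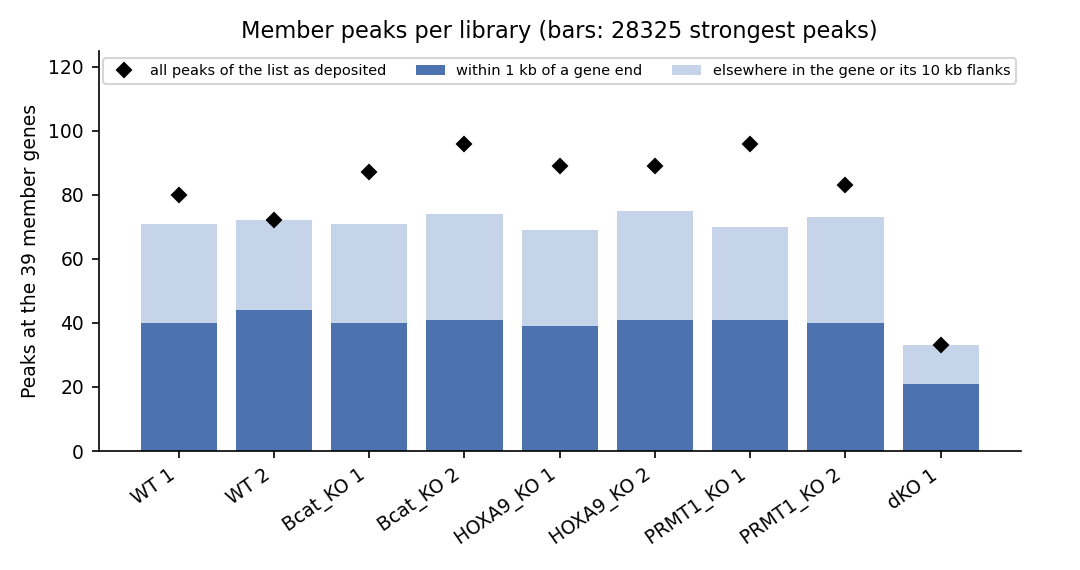
Peaks assigned to the 39 genes in each library: bars count peaks of the shortened list, dark within 1 kb of a gene end and light elsewhere, and diamonds count the list as deposited (the dKO list, of 10639 peaks, was not shortened). The 8 replicated libraries hold 69 to 75 member peaks in the shortened lists, 39 to 44 of them at gene ends, and the dKO holds 33.

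**Figure D3:**
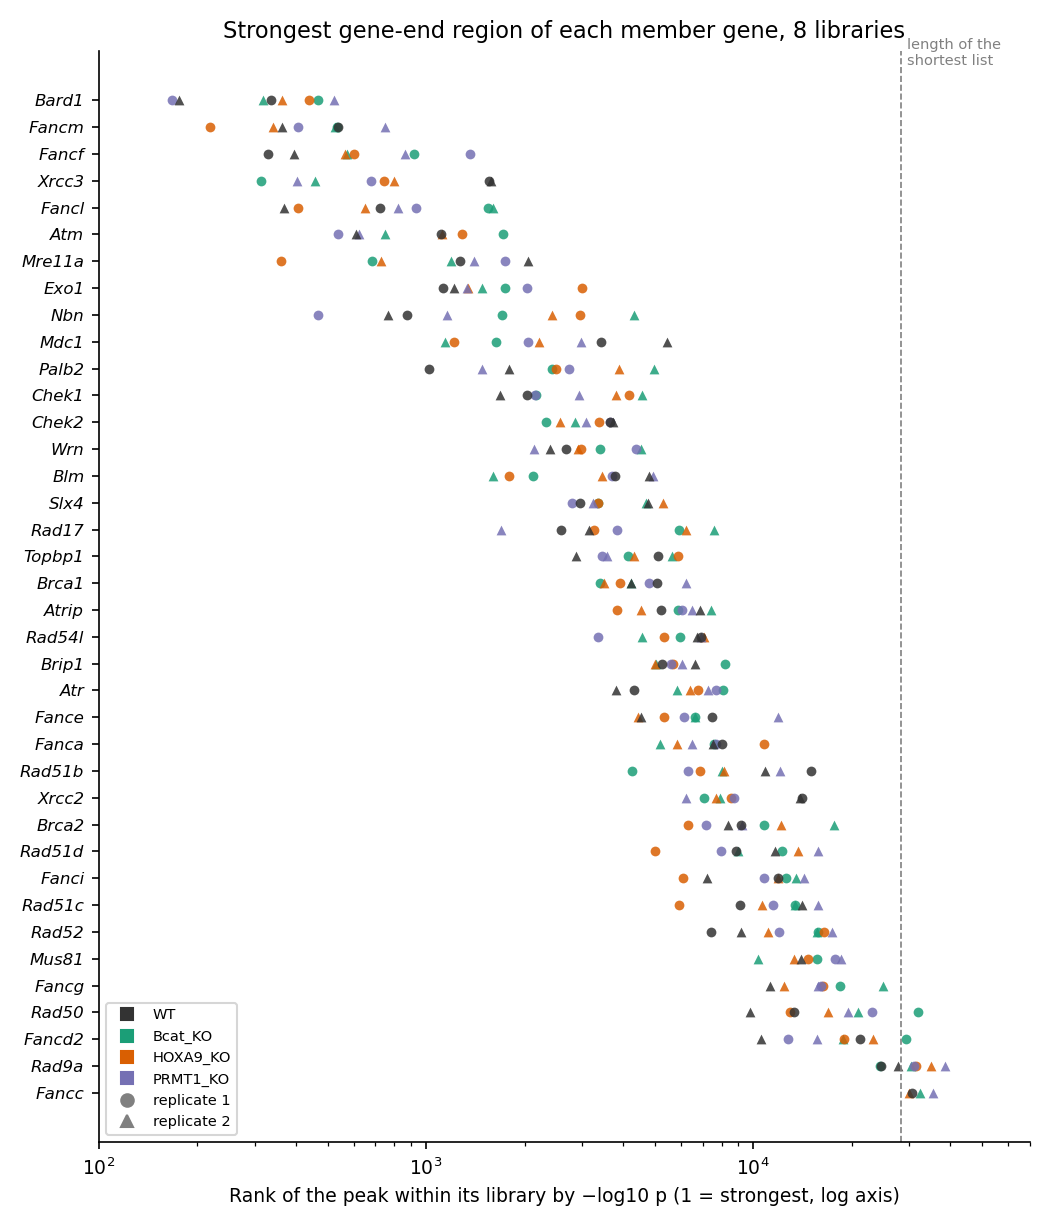
Rank by −log10 p of the strongest gene-end region of each member (log axis, 1 is strongest), with colour for the group, circles for replicate 1 and triangles for replicate 2; the dashed line marks rank 28325 and a missing symbol means no peak. Bard1, Fancm and Fancf lie at the strong end, and Rad50, Fancd2, Rad9a and Fancc straddle or pass the line.

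BRCA1 and its partners varied widely in accessibility. The Bard1 promoter (chr1:71102248-71103666), which encodes the obligate partner of BRCA1 in its ubiquitin ligase, was the strongest member end: it ranked 336 and 176 in WT, 438 and 363 in HOXA9_KO, 467 and 318 in Bcat_KO, 167 and 522 in PRMT1_KO, and 1070 in the dKO. Bcat_KO and PRMT1_KO overlapped WT, and both HOXA9_KO libraries ranked it weaker than either WT library. Its summit held 112 to 177 reads in the 8 libraries, at a deposited fold enrichment of 12.2 to 17.4. The Brca1 end shared with Nbr1 ranked 3397 to 6230 in the 8 libraries, that of Palb2, the bridge between BRCA1 and BRCA2, 1019 to 4958, and that of Brip1, a helicase bound by BRCA1, 5014 to 8189. Brca2 had the weakest of the 5 ends, at ranks 6321 to 17599, and no dKO peak. A second strong region in the 3′ flank of Palb2 (chr7:122101481-122102281) lay at the start of Ndufab1. It ranked 1564 and 2342 in WT, 1529 and 1427 in HOXA9_KO, 1645 and 2299 in Bcat_KO, 843 and 520 in PRMT1_KO, and 6855 in the dKO, and was stronger in both HOXA9_KO and both PRMT1_KO libraries than in either WT library.

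Xrcc2, Xrcc3, Rad51b, Rad51c and Rad51d, whose products form complexes that act in strand exchange, spanned strong and weak ends. The Xrcc3 end (chr12:111813610-111814583), shared with the start of Zfyve21, ranked 1554 and 1577 in WT, 744 and 796 in HOXA9_KO, 313 and 458 in Bcat_KO, 677 and 403 in PRMT1_KO, and 5284 in the dKO. All 6 mutant libraries ranked it above both WT libraries. At the Xrcc2 end (chr5:25705183-25706207) the ranks were 14138 and 13886 in WT, 8546 and 7678 in HOXA9_KO, 7052 and 7915 in Bcat_KO, and 8739 and 6215 in PRMT1_KO, with no dKO peak, and again all 6 mutant libraries lay above WT. The strongest end regions of Rad51b, Rad51c and Rad51d, also at the starts of Zfyve26, Tex14 and Rffl, ranked between 4271 and 15818 over the 8 libraries. WT values overlapped those of the 6 mutant libraries at each, but Bcat_KO (4271 and 8039) and HOXA9_KO (6869 and 8116) lay above WT (15045 and 10826) at Rad51b. A second Rad51b end region, 27 bp from a RefSeq start site, ranked 10828 and 12566 in WT, and 18036 and 23399 in Bcat_KO. It ranked 22726 and 24648 in PRMT1_KO and 17788 in HOXA9_KO replicate 2, with no peak in HOXA9_KO replicate 1, so no mutant library reached WT. Rad54l, which encodes a motor protein of strand exchange, had ranks of 3351 to 7079.

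Rad52, which anneals single strands, had a promoter region and an internal region whose ranks differed from WT in opposite directions. Its promoter region (chr6:119902383-119903158), 228 bp from the RefSeq start site, ranked 7403 and 9147 in WT, 16459 and 11056 in HOXA9_KO, 15775 and 15616 in Bcat_KO, 11991 and 17359 in PRMT1_KO, and 5522 in the dKO. The region inside the gene (chr6:119918520-119919242), 3951 bp from its 3′ end, ranked 7089 and 9172 in WT, 2529 and 4935 in HOXA9_KO, 3081 and 4299 in Bcat_KO, and 2641 and 1200 in PRMT1_KO, with no dKO peak. Thus the 6 mutant libraries lay below WT at the promoter and above it inside the gene, with no overlap at either. The promoter summit sat more than 1 kb from the end of the gene span in HOXA9_KO replicate 1 and PRMT1_KO replicate 2, which is why Rad52 lacked a gene-end peak in those libraries although the region was open there.

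Among genes of end resection and of helicases, Mre11a, the nuclease of the MRN complex, had a strong end shared with Ankrd49 at ranks 361 to 2053, and Exo1, an exonuclease, one at 1125 to 3005. Nbn, the third MRN subunit, ranked 875 and 765 in WT, 2953 and 2419 in HOXA9_KO, 1705 and 4326 in Bcat_KO, 468 and 1158 in PRMT1_KO, and 1619 in the dKO. It was weaker than WT in both Bcat_KO and both HOXA9_KO libraries, while PRMT1_KO overlapped WT. Rad50, the ATPase of the same complex, was far weaker (chr11:53706508-53707617), at 13290 and 9743 in WT, 12932 and 16900 in HOXA9_KO, 31978 and 20914 in Bcat_KO, and 23053 and 19439 in PRMT1_KO. It fell outside the shortened list in Bcat_KO replicate 1 and had no dKO peak; both Bcat_KO and both PRMT1_KO libraries ranked it below WT. Rbbp8, the cofactor of MRN known as CtIP, had 0 gene-end peaks in the 9 lists, but a region inside the gene, 24150 bp from its nearer end, ranked 3697 and 6808 in WT, 3339 and 3651 in HOXA9_KO, 4291 and 4241 in Bcat_KO, 4693 and 5988 in PRMT1_KO, and 2913 in the dKO. The RecQ helicase genes Blm and Wrn had ends at ranks 1603 to 4921 and 2137 to 4522.

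The nuclease gene Mus81 and the scaffold gene Slx4, which process branched DNA, differed in the strength of their ends. Mus81 (chr19:5488894-5489463) had no peak in WT replicate 1 and ranked 14008 in WT replicate 2, 14748 and 13281 in HOXA9_KO, 15662 and 10368 in Bcat_KO, and 17821 and 18535 in PRMT1_KO, with no dKO peak; a second end region ranked 9883 to 34502 in the 8 libraries. The Slx4 end ranked 2789 to 5290 and overlapped between groups. A region inside Slx4 (chr16:3982256-3982882), 3324 bp from the 3′ end of the gene, had no peak in either WT list or in the dKO. In the mutants it ranked 17723 and 11237 in HOXA9_KO, 18652 and 11015 in Bcat_KO, and 12854 and 16971 in PRMT1_KO, with 17 to 29 reads at its summit. Whether it lies in an exon or an intron is not given in the gene table used here.

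The Fanconi core genes held some of the strongest and some of the weakest ends. The Fancm end (chr12:65073431-65074315), at the start of Fkbp3, ranked 536 and 363 in WT, 218 and 341 in HOXA9_KO, 535 and 526 in Bcat_KO, 406 and 748 in PRMT1_KO, and 352 in the dKO; both HOXA9_KO libraries lay above WT. FANCM is the translocase that anchors the core complex, and its RefSeq start site lay in a separate region (chr12:65075354-65075996) of ranks 6122 to 16827. The Fancf end (chr7:51861441-51862605), shared with the start of Gas2, ranked 328 and 395 in WT, 600 and 565 in HOXA9_KO, 921 and 574 in Bcat_KO, 1361 and 861 in PRMT1_KO, and 1055 in the dKO, below WT in all 6 mutant libraries. Fancl, the ubiquitin ligase subunit (chr11:26386937-26387724), ranked 721 and 368 in WT, 406 and 651 in HOXA9_KO, 1550 and 1598 in Bcat_KO, 929 and 820 in PRMT1_KO, and 2069 in the dKO, so that Bcat_KO and PRMT1_KO lay below WT and HOXA9_KO within it. Fanca and Fance ranked 5184 to 10795 and 4457 to 11885.

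Fancg (chr4:43010111-43010635), another core gene, had no peak at its end in WT replicate 1. It ranked 11238 in WT replicate 2, 16390 and 12390 in HOXA9_KO, 18388 and 24959 in Bcat_KO, and 16141 and 15801 in PRMT1_KO, with no dKO peak. The far stronger region in its 3′ flank (chr4:42999628-43000853) lay at the start of Vcp and ranked 2587 and 3141 in WT, 1063 and 1870 in HOXA9_KO, 1442 and 1528 in Bcat_KO, 1316 and 1250 in PRMT1_KO, and 1754 in the dKO, above WT in all 6 mutant libraries. Fancd2 (chr6:113531217-113531819), whose product is the main target of the core complex, shared a weak end with Emc3: 21268 and 10539 in WT, 18970 and 23170 in HOXA9_KO, 29307 and 18781 in Bcat_KO, 12735 and 15635 in PRMT1_KO, and no dKO peak. Each group overlapped WT there. Its partner Fanci ranked 6089 to 14246.

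Fancc, also of the core complex, had a peak at an end of its gene span in only 4 deposited lists and in 0 of the 8 shortened ones. Its open promoter lay inside the span, 229 bp from the RefSeq start site (chr13:63430837-63432049), and ranked 1316 and 1482 in WT, 1700 and 3330 in HOXA9_KO, 1532 and 2892 in Bcat_KO, 1676 and 1752 in PRMT1_KO, and 1319 in the dKO. All 6 mutant libraries lay below WT. A region deeper in Fancc (chr13:63394341-63395435), 36854 bp from the start site, ranked 6196 and 5434 in WT, 12575 and 13735 in HOXA9_KO, 4798 and 3751 in Bcat_KO, and 4752 and 4594 in PRMT1_KO, with no dKO peak. HOXA9_KO stood apart from the 6 other libraries, at the weak side.

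The checkpoint genes were mostly open at middle to high ranks. Atm (chr9:53536490-53537484), the kinase activated by double-strand breaks, shared its end with the start of Npat and ranked 1108 and 609 in WT, 1284 and 1119 in HOXA9_KO, 1722 and 750 in Bcat_KO, 536 and 623 in PRMT1_KO, and 6889 in the dKO; HOXA9_KO lay below WT and the other groups overlapped it. Atr, the kinase of stalled forks, ranked 4320 and 3799 in WT and 5836 to 8089 in the 6 mutant libraries, all below WT, and had no dKO peak. Its effector Chek1 ranked 2039 and 1677 in WT and 2150 to 4558 in the mutants, also below WT in all 6. Chek2, the effector of ATM, ranked 3658 and 3734 in WT and 2331 to 3653 in the mutants, above WT in all 6; in PRMT1_KO replicate 1 it was at 3653, beside 3658 in WT replicate 1.

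A strong region in the 3′ flank of Atr (chr9:95954337-95955376) lay at the start of Xrn1 and ranked 2859 and 3492 in WT, 4292 and 6800 in HOXA9_KO, 6446 and 7568 in Bcat_KO, 3301 and 4084 in PRMT1_KO, and 9346 in the dKO. Bcat_KO and HOXA9_KO lay below WT there and PRMT1_KO overlapped it. In the 5′ flank of Atrip, the partner of ATR, a region at the starts of Ccdc51 and Tma7 (chr9:109082043-109083050) ranked 3516 and 3960 in WT, 6249 and 7827 in HOXA9_KO, 4034 and 6417 in Bcat_KO, 4081 and 4642 in PRMT1_KO, and 4563 in the dKO, below WT in all 6 mutant libraries. Mdc1, a mediator that binds marked chromatin beside breaks, ranked 3423 and 5454 in WT, 1217 and 2220 in HOXA9_KO, 1640 and 1143 in Bcat_KO, 2050 and 2969 in PRMT1_KO, and 2843 in the dKO, above WT in all 6. The 2 ends of Atrip itself ranked 3718 to 9773. Topbp1, the activator of ATR, and Rad17, the clamp loader, ranked 2871 to 5908 and 1690 to 7569. Rad9a, a subunit of the clamp, had the weakest end of all members with a peak in every deposited list of the 8 (chr19:4201001-4201908), at 24595 and 27746 in WT, 31343 and 34854 in HOXA9_KO, 24357 and 30446 in Bcat_KO, and 31074 and 38683 in PRMT1_KO. It was in the shortened lists of both WT libraries and of Bcat_KO replicate 1 only.

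Gain or loss of regions against WT was first read by presence. A region counted as opened where both mutant libraries had it among their 14162 strongest peaks and neither WT library had it in the shortened list, and as closed in the reverse case. Of the 90 member regions in any shortened list, 0 were opened and 0 closed in Bcat_KO, HOXA9_KO or PRMT1_KO. Over all 46847 regions the shares were 0.269% opened and 0.0832% closed in Bcat_KO, 0.446% and 0.16% in HOXA9_KO, and 0.188% and 0.0704% in PRMT1_KO, so that fewer than 1 of 90 would be called at those shares. The 104 regions of the 49 further pathway genes gave 0 calls as well; 46 of those genes had a gene-end peak in all 8 shortened lists.

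With any peak of the shortened list accepted on the open side, 3 member regions were opened and 1 closed in Bcat_KO, where 4.41% and 3.54% of all regions were. HOXA9_KO had 4 opened and 1 closed, beside 5.33% and 4.12%, and PRMT1_KO 2 and 2, beside 4.22% and 3.27%. As a share of 90 regions, none of these counts exceeded the share over all regions. The region inside Slx4 was opened in all 3 comparisons under this rule, and so was it with the lists as deposited. Both deposited WT lists (35581 and 28325 peaks) were shorter than every list of the 3 mutants (39881 to 45460). List length and genotype cannot be told apart with the lists as deposited. The others opened with any peak of the shortened list were a flank region of Rad9a in Bcat_KO and HOXA9_KO, a region inside Nbn in Bcat_KO, a flank region of Blm and a region inside Topbp1 in HOXA9_KO, and a region inside Fancl in PRMT1_KO. The end of Rad9a counted as closed in HOXA9_KO and PRMT1_KO, and a flank region of Fancm in Bcat_KO and PRMT1_KO. The Rad9a end had a peak in all 8 deposited lists, and its WT ranks, 24595 and 27746, lay near the cut at 28325. Its mean fold enrichment, not normalized between libraries, was 3.99 in WT, 4.24 in HOXA9_KO and 3.99 in PRMT1_KO. The call there is one of rank in the shortened lists, not of a lost peak. The 3 comparisons share the WT libraries. A comparison of 2 with 2 libraries by itself cannot give an exact two-sided p below 0.333.

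Strength was then tested on the rank score, the normal score of a region's rank in the shortened list, on which a higher value is a stronger peak and 1 unit is 1 SD of these scores. limma was fitted to the 15951 regions in all 8 shortened lists, with two-sided tests and Benjamini-Hochberg adjustment over all of them. At an adjusted p under 0.05, 0 of the 54 member regions differed from WT in Bcat_KO, HOXA9_KO or PRMT1_KO, and 0 differed among the 4 groups by the F test. Over all regions tested, 0.00627% of regions were higher and 0.00627% lower in Bcat_KO; the shares were 0.176% and 0.182% for HOXA9_KO and 0.0% and 0.00627% for PRMT1_KO, and 0.0% passed the F test. At an unadjusted p under 0.05, limma gave 14 of 54 member regions in Bcat_KO, 8 higher and 6 lower, where 16.7% of all regions passed, 8.73% higher and 7.94% lower. In HOXA9_KO it gave 10, 5 higher and 5 lower, where 17.9% passed, 8.65% and 9.22%. In PRMT1_KO it gave 10, 6 higher and 4 lower, where 14.3% passed, 7.57% and 6.75%. By the F test 8 passed unadjusted, where 17.8% of all regions did. The 67 regions of the further pathway genes gave 10 in each comparison and 10 by the F test.

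The differences of the members were spread about as widely as those of other regions. Their median difference from WT was −0.079 in Bcat_KO, 0.034 in HOXA9_KO and −0.014 in PRMT1_KO, beside −0.023, −0.026 and −0.023 for all regions. The SD of the differences was 0.419, 0.418 and 0.349 over the members, and 0.42, 0.437 and 0.4 over all regions. The standard error of a member's difference was 0.20 in the median and 0.16 to 0.42 over regions and groups.

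**Figure D4:**
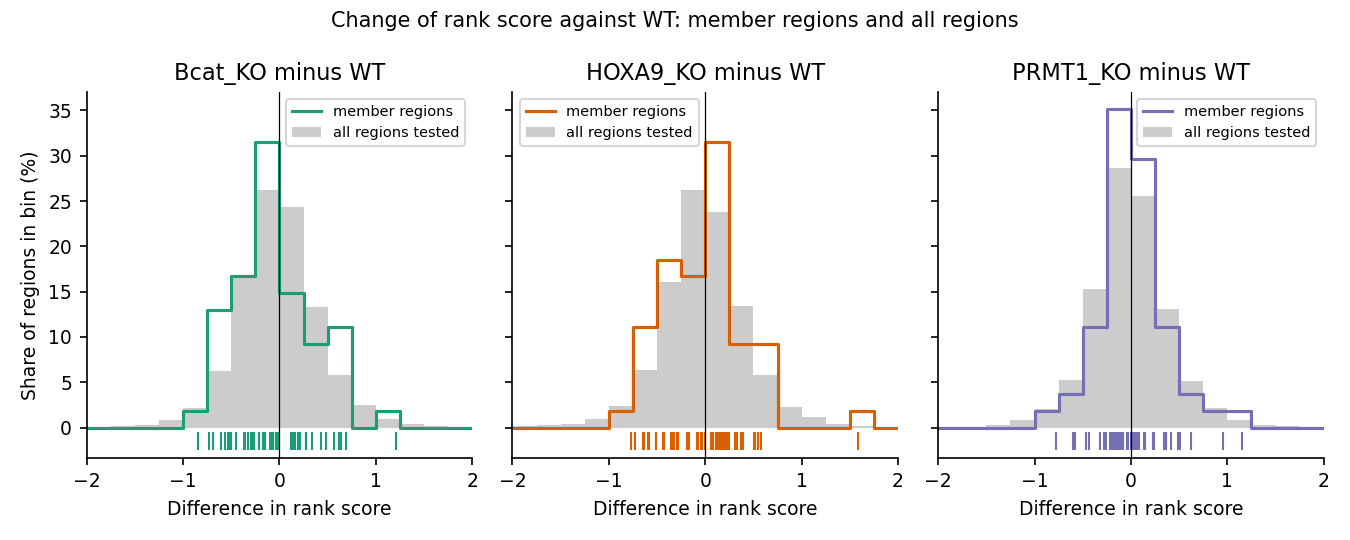
Difference in rank score between each mutant and WT: the coloured outline is the share (%) of the 54 member regions in each bin, grey the share of the 15951 regions tested, and ticks mark single member regions. Both centre near 0, and the isolated ticks at 1.21, 1.58 and 1.15 are the region inside Rad51b.

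The regions described next were picked after their values were seen, as the 8 with the lowest F-test p among the members, with the Rad52 promoter region added to set beside the internal one; none passed after adjustment. The region inside Rad51b (chr12:79646610-79647183), 201435 bp from the 3′ end of that long gene, ranked 27726 and 23785 in WT, 12830 and 14034 in HOXA9_KO, 16436 and 18571 in Bcat_KO, and 17728 and 18517 in PRMT1_KO, with no dKO peak. Its 2 WT values lay apart from all 6 mutant values, at 8 to 9 reads against 16 to 22. The rank score was higher than WT by 1.21 ± 0.30 (SE, n = 2 against 2) in Bcat_KO, 1.58 in HOXA9_KO and 1.15 in PRMT1_KO, with limma adjusted p of 0.136, 0.0674 and 0.181 (Benjamini-Hochberg). The HOXA9_KO difference passed in a limma fit without WT replicate 2 (2.1, Benjamini-Hochberg adjusted p = 0.0406) and on the scale of log2 fold enrichment (0.71, adjusted p = 0.0321). Without WT replicate 1 it was 1.06 (limma adjusted p = 0.116), and the differences of Bcat_KO and PRMT1_KO were 0.692 and 0.635. Without WT replicate 2 the latter were 1.73 and 1.67, and over all libraries left out in turn the HOXA9_KO adjusted p ran from 0.0406 to 0.17, so the size of each difference rests on which WT library is used.

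The region deeper in Fancc was lower in HOXA9_KO than in WT by 0.73 on the rank score (SE 0.16), at a limma adjusted p of 0.084, and by the F test over the 4 groups its adjusted p was 0.0952. Bcat_KO and PRMT1_KO differed from WT by 0.21 and 0.15 there, with 95% intervals of −0.16 to 0.59 and −0.22 to 0.53. The internal region of Rad52 was higher by 0.96 ± 0.22 (SE) in PRMT1_KO, with a limma adjusted p of 0.152, and by 0.57 and 0.58 in Bcat_KO and HOXA9_KO; without HOXA9_KO replicate 1 the last was 0.372. Its promoter region differed by −0.69, −0.51 and −0.60 in Bcat_KO, HOXA9_KO and PRMT1_KO, with SE 0.23 and limma adjusted p of 0.214, 0.295 and 0.304. At the Xrcc2 end the differences were 0.62, 0.55 and 0.62 (SE 0.17), and at the Xrcc3 end 0.62, 0.33 and 0.49 (SE 0.17).

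At the Mdc1 end the difference from WT was 0.64 for Bcat_KO, 0.55 for HOXA9_KO and 0.34 for PRMT1_KO (SE 0.20). The Nbn end differed by −0.61 in Bcat_KO and −0.58 in HOXA9_KO, and by 0.04 in PRMT1_KO (SE 0.23). The Bcat_KO value rests on single libraries, at −0.344 without Bcat_KO replicate 2 and −0.873 without replicate 1. The start-site region of Fancm differed by −0.45, −0.65 and −0.04 in the same order (SE 0.22). The lowest limma adjusted p of any member region was 0.136 in Bcat_KO, 0.0674 in HOXA9_KO and 0.152 in PRMT1_KO, so none of these differences is called.

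**Figure D5:**
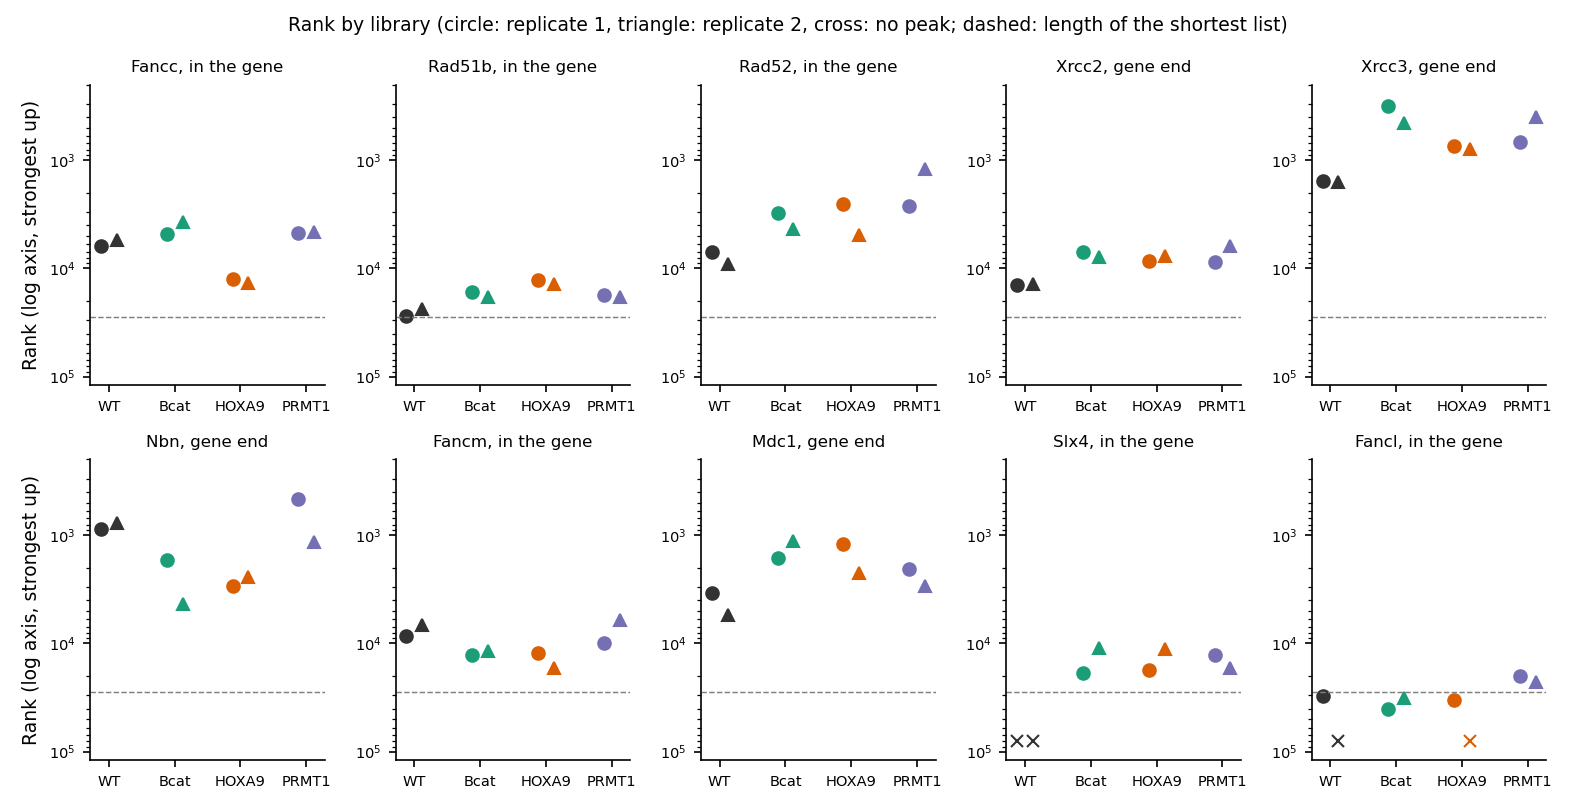
Rank by −log10 p (log axis, strongest at the top) of 10 member regions in the 8 libraries, by group, with circles for replicate 1, triangles for replicate 2, crosses for no peak and a dashed line at rank 28325. The 2 WT libraries lie apart from the 6 mutant libraries at Rad51b, Rad52, Xrcc2, Xrcc3, Mdc1 and Slx4, and HOXA9_KO lies apart from the rest at Fancc.

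Of the 54 regions, 8 (14.8%) were stronger by rank in all 6 mutant libraries than in both WT libraries and 8 (14.8%) were weaker, with no overlap. Over all 15951 regions the shares were lower, at 8.57% and 9.73%, and this difference in share was not tested. The stronger regions were the ends of Xrcc3, Xrcc2, Mdc1 and Chek2, the internal regions of Rad52 and Rad51b, and flank regions of Fancg and Mdc1. The weaker ones were the ends of Fancf, Exo1, Chek1, Atr and Rad52, the start-site region of Fancc, and flank regions of Atrip and Fance. Weaker here means by rank of −log10 p, and mean fold enrichment, not normalized between libraries, did not always follow. At the Chek1 end mean fold was 13.3 in WT, and 16.0 for PRMT1_KO, 14.7 for Bcat_KO and 14.4 for HOXA9_KO. The mean of each mutant also exceeded WT at the Exo1 end and Atrip flank. At the Rad52 end and Fance flank each lay below WT. The Fancf and Atr ends and the Fancc region had no single direction. By rank, Exo1 lay at 1125 and 1214 in WT and 1337 to 3005 in the mutants. The chromosome Y peaks separate the same libraries in the same way, with 0 in WT and 12 to 16 in each mutant, and sex and genotype cannot be told apart here.

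For the dKO, every list was shortened to its 10639 peaks. At that length 20 of the 39 members had a gene-end peak in the dKO (51.3%), against 26 to 30 in the other 8 libraries. All protein-coding genes had one in 29.8% of cases in the dKO and 31.3 to 34.8% in the others. Of the 23 members with such a peak in all 8 libraries at this length, 20 also had it in the dKO, and the 3 without it were Atr, Blm and Topbp1. These are counts over a fixed list of genes, which are not replicates. The dKO has 1 library, with 12 reads at a median member summit, and the part of depth in the missing ends was not tested.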

How the data were processed

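ATAC-seq peak lists of 9 LSK libraries were used. Reads had been aligned by the authors with Bowtie2 2.4.2 to GRCm38, per the submitters' processing notes, which also name SAMtools 1.14, Picard 2.27.4 and MACS2, whose version and settings are not given in the sources used here; the names of the peaks record that unmapped and duplicate reads were removed, with peaks called in each library separately. The deposited score is 10 times the −log10 q, without its decimals. The deposited fold enrichment is the ratio of reads at the summit to the local background of the same library, with the same small constant added to both. The deposited −log10 p and −log10 q values are those of the summit. The other deposited value, the summit offset in bases, placed each peak. None of these values is normalized between libraries, so they were used only to describe peaks and to rank them within a list.

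Lists were shortened to the 28325 strongest peaks by −log10 p (10639 for the dKO comparison), and peaks sharing at least 1 bp were merged. Gene spans and promoters came from RefSeq tables (GRCm38.p6). Reads at a summit were recovered from fold and p, whole within rounding for 100.0% of values in the 8 libraries and 96.3% in the dKO; they give depth at a summit only, and total depth is not known. Rank scores were tested with limma 3.58.1 in R 4.3.3 over 15951 regions in the 8 libraries, with groups as the only term and Benjamini-Hochberg adjustment. Other steps used Python 3.11.15 and scipy 1.17.1. Simulated ranks were used to try the call rule and the limma fit only. The members and lists were chosen with earlier results of these data known. Values in every library were given for called regions, for the 6 members with the strongest and the 6 with the weakest ends, for the 8 strongest regions elsewhere, and for members absent from some shortened list; Xrcc2, Xrcc3, Mdc1, Nbn, Rad51b, the internal Slx4 region and others beyond this rule were singled out after their values were seen. Alternatives tried were other list lengths, ranking by fold, −log10 q of at least 5, a gene end of 500 bp, flanks of 5 kb, summits chained within 250 bp, no filter, log2 fold, a replicate block and leaving out each library.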

Additional observations from a re-analysis of the deposited data

How the results depend on the processing

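The number of members with a gene-end peak was 35.8 ± 0.707 per library (SD, n = 8). It was 32.6 with a gene end of 500 bp, 37.1 with the lists as deposited and 28.5 with all lists at the length of the dKO list. Opened member regions, 0 in each comparison, numbered 1 in Bcat_KO, 2 in HOXA9_KO and 1 in PRMT1_KO with the lists as deposited, and 3, 4 and 2 with any peak of the shortened list; closed ones then numbered 1, 1 and 2. Leaving out each library in turn gave 0 to 1 opened in all 3 comparisons, the 1 being the internal Slx4 region without Bcat_KO replicate 1, HOXA9_KO replicate 1 or PRMT1_KO replicate 2. Closed regions were then 0 to 1 in Bcat_KO (the Rad50 end without Bcat_KO replicate 2) and in HOXA9_KO (an end region of Rad51b without HOXA9_KO replicate 2), and 0 in PRMT1_KO.

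Of the limma results at 0 member regions, HOXA9_KO gave 1 on log2 fold enrichment and 0 to 1 on leaving out each library, both times the internal Rad51b region, whose p and differences stand with its ranks above. Without the filter, which gives absent regions the lowest rank, limma called 1 member region in Bcat_KO, 2 in HOXA9_KO, 2 in PRMT1_KO and 3 by the F test, but also 1869, 2524, 1791 and 3371 of all regions. The internal Slx4 region passed in all 4, at differences of 4.07, 4.11 and 4.07 in Bcat_KO, HOXA9_KO and PRMT1_KO; the internal regions of Topbp1 (HOXA9_KO) and Fancl (PRMT1_KO) were the others. The ties at the lowest rank come from the construction of this alternative; why the other counts differ was not tested. With the replicate number as a block, limma called 0 member regions in each comparison and 0 by the F test. Whether an equal replicate number marks a shared animal, batch or day is not given. Deviations of same-numbered libraries correlated at −0.00964 to 0.0355, which cannot decide it, as a low correlation is also possible with a shared batch. Over the values of the single regions under every alternative run, none reversed direction. These regions and groups were picked after their values were seen. By construction, no filter, the replicate block and leaving out a library of another mutant return the same difference. A kept direction under those settings therefore tells nothing further.

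Depth limits the weak regions: 8 to 9 reads stood at the WT summits of the Rad51b region, and a peak missing from a list may be one below its threshold. With 2 libraries a group, differences in rank score well above the standard errors of 0.16 to 0.42 also went uncalled. At the internal Rad51b region the HOXA9_KO difference was 1.58 (SE 0.3), with a limma adjusted p of 0.0674. The smallest detectable difference was not determined, and 0 calls do not show that these regions were unchanged.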
